A study of Mus musculus with 83 samples.

Results

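Deletion of *Dnmt1* in mouse embryonic stem cells (ESCs, cultured cells derived from the early embryo) was compared with control ESCs 9 days into a time course. Members were chosen by sample title: 3 Dnmt1 KO and 3 control libraries of day 9 whose titles carry no R1 suffix, 6 of the 83 libraries of the series. All 6 were labelled as E14 background, and the methods give the floxed line as C57BL/6. In the knockout, Cre recombinase was induced with tamoxifen to excise floxed *Dnmt1*. Cells were grown in serum and LIF with or without feeder cells, and neither source says which day 9 cultures had feeders, whether the controls carried the floxed alleles or whether they received tamoxifen. The series text speaks of 3 biological replicates. No label ties the libraries to separate derivations of the line, so p-values measure the spread between libraries only. For single features on day 9, that spread was estimated over all 36 libraries of the time course, not over these 6 alone.

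DNMT1 copies methylation marks onto newly made DNA at each cell division, and cells without it lose methylation as they divide. MicroRNAs (miRNAs) are RNAs of about the length kept here, cut from hairpin precursors and loaded into Argonaute proteins. They recognise target mRNAs mainly through their seed, bases 2 to 8. Many lie in clusters made from a shared primary transcript, and those of the *Dlk1*-*Dio3* region belong to an imprinted domain whose maternal copy gives the noncoding RNAs *Meg3*, *Rian* and *Mirg* along with miRNAs and C/D box snoRNAs. *Rtl1*, a retrotransposon-derived gene, is read from the paternal copy on the opposite strand to its antisense miRNAs.

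Reads of 20 to 24 nt were counted per gene feature, and levels are given as RPM, the reads of a feature scaled to the same library total. Depth was 6184241 to 6239009 reads in Dnmt1 KO and 4135228 to 5668458 in control. Of 32101 features, 2582 reached 10 RPM in at least 3 libraries of the time course and were tested. Fold changes are Dnmt1 KO over control on the log2(RPM + 1) scale, which understates the change of rare features. They were taken after TMM scaling, a correction factor per library (on day 9, 0.87 to 0.90 in Dnmt1 KO and 0.96 to 0.97 in control). The printed RPM lack this factor, which moves day 9 fold changes upwards against the ratio of printed RPM. A feature was called at an adjusted p under 0.05 (limma across all features, Benjamini-Hochberg). In 475 features (18.4%) the level changed. Of these, 317 (12.3% of those tested) rose and 158 (6.12%) fell. The number that fell was 99 without control replicate 2 and 94 without control replicate 3. Scaling by library totals instead of TMM gave 490 calls, but the share of higher ones went from 66.7% to 49.4%. The median over all features moved from 0.09 to -0.02 on the log2 scale. The share of higher calls also depended on the filter and the fit. A filter of 10 reads in each day 9 library gave 216 higher and 191 lower calls. The day 9 libraries alone gave 492 and 386.

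Mature sequences of miRNAs described here are printed with the seed in capitals (RefSeq, GRCm38.p6, written as RNA). Several of those that fell, and let-7, share a seed with other miRNAs. The first family, with seed AAAGUGC, is spread over 3 clusters and had members that fell in each of them.
miR-17-5p: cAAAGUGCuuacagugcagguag
miR-20a-5p: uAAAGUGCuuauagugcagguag
miR-20b-5p: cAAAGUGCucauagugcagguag
miR-106a-5p: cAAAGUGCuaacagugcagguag
miR-93-5p: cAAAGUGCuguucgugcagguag
miR-106b-5p: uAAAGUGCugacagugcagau
A related seed, AAGUGCU, joins the ESC miRNAs of the miR-290-295 cluster to miR-302, so 1 seed is shared by clusters with different values on day 9.
miR-291a-3p: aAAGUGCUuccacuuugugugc
miR-294-3p: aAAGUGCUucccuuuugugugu
miR-295-3p: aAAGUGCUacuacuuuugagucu
miR-302b-3p: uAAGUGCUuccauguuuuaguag
miR-302d-3p: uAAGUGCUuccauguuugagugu
The third seed, AUUGCAC, belongs to the miRNA at the other end of several of these clusters.
miR-363-3p: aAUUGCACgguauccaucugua
miR-367-3p: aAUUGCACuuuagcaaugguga
miR-92a-3p: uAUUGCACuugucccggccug
miR-25-3p: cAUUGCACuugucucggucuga
The let-7 family, here with its seed GAGGUAG, rose as a family.
let-7i-5p: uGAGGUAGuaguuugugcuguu
let-7d-5p: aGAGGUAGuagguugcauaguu
let-7g-5p: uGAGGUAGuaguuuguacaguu
The miRNAs that rose most share few seeds. Shown are 6 examples from the *Dlk1*-*Dio3* region, among them miR-127, the most abundant, and miR-758, with the largest change.
miR-127-3p: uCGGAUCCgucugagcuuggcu
miR-541-5p: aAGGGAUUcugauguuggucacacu
miR-341-3p: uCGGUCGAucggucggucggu
miR-370-3p: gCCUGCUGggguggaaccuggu
miR-540-3p: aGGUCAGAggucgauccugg
miR-758-3p: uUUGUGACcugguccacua
The next set comes from the X-linked cluster, which was rare in control cells.
miR-743b-3p: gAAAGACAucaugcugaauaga
miR-471-5p: uACGUAGUauagugcuuuucac
miR-741-3p: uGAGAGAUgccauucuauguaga
miR-463-3p: uGAUAGACaccauauaagguag
miR-878-3p: gCAUGACAccacacuggguaga
miR-881-3p: aACUGUGUcuuuucugaauaga
miR-871-3p: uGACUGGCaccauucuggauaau
miR-470-5p: uUCUUGGAcuggcacuggugagu
Of the 46 tested miRNA features of the *Dlk1*-*Dio3* region, 40 held a RefSeq mature sequence. Their 78 mature forms had 73 different seeds, of which 3 also occurred in tested miRNAs elsewhere. The 9 tested features of the X-linked cluster held 18 mature forms with 18 different seeds, and 0 of these occurred in any other tested miRNA. The first 20 bases of each sequence shown (miR-758-3p has only 19) had 1 match in the mouse genome, except miR-92a-3p with 2. Reads of *Mir92-1* and *Mir92-2* can therefore belong to either. Only reads of 20 to 24 nt were kept, which leaves out the full printed forms of miR-758-3p (19 nt) and miR-541-5p (25 nt). Reads counted for *Mir758* and *Mir541* thus had other lengths than the forms printed.

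The targeted gene cannot be checked by these libraries. Over the *Dnmt1* feature (NCBIM37 chromosome 9, 20711650 to 20757317), the Dnmt1 KO libraries held 60.3, 48.8 and 63.0 RPM and the controls 54.9, 56.5 and 48.1 RPM. The groups overlapped, with a log2 fold change of 0.22 ± 0.20 (SE) and a limma adjusted p of 0.533. Reads of 20 to 24 nt over a gene do not measure its mRNA or tell which exon was deleted.

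**Figure D1:**
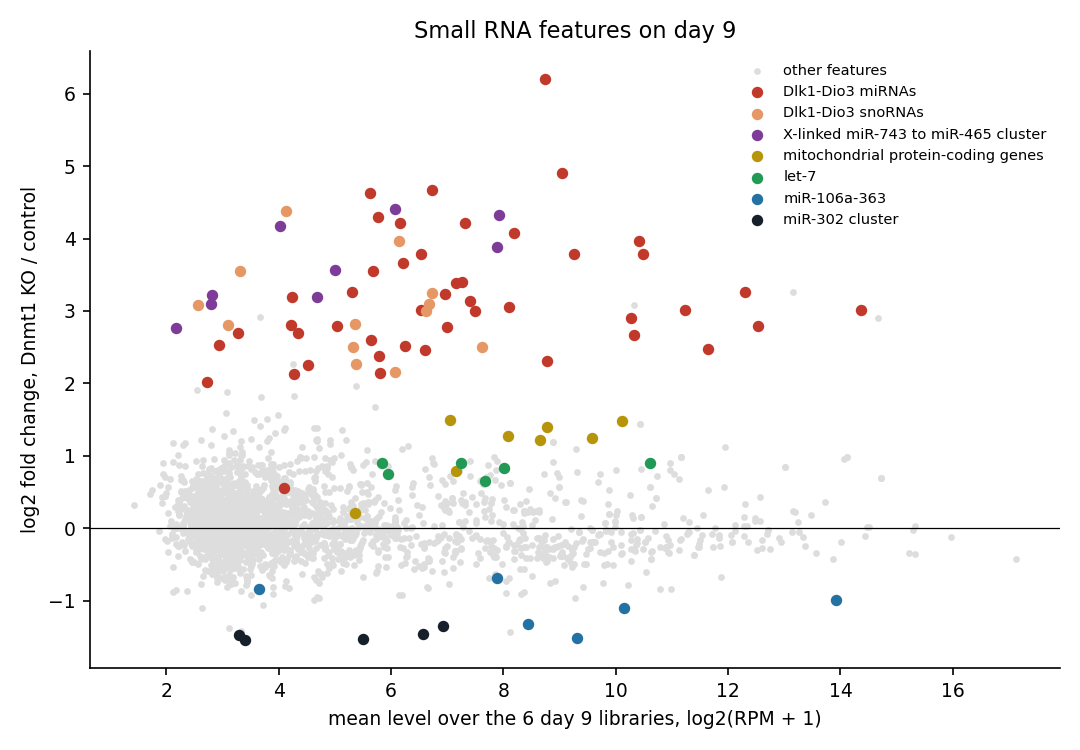
Each point is 1 of 2582 tested features; the x axis is its mean level over the 6 day 9 libraries in log2(RPM + 1), and the y axis is its log2 fold change, Dnmt1 KO over control. Coloured points are the named groups: *Dlk1*-*Dio3* and X-linked miRNAs lie at the top, with *Mir758* highest at 6.21, and the miR-302 cluster lies between -1.54 and -1.34.

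Among miRNAs, 157 of 287 tested features changed (54.7%), with 116 higher (40.4%) and 41 lower (14.3%). Outside *Dlk1*-*Dio3* 112 of 241 changed (46.5%). Large changes were concentrated in few clusters. Of the 60 miRNA features that were called higher by over 1 on the log2 scale, 54 lay in the *Dlk1*-*Dio3* region or the X-linked cluster. Only 31 of 46 and 3 of 9 tested features of these groups passed the level filter on control libraries alone. This count is therefore a description. Of the 10 called lower by over 1, 8 lay in the miR-302 cluster or miR-106a-363. The summed share of miRNA features was 58.5 ± 1.16% of reads in Dnmt1 KO and 57.6 ± 0.22% in control (mean ± SD, n = 3, exact permutation p = 0.4, two-sided), a difference of 0.945 percentage points. Without the 5 most abundant features, among them *Mir182*, the difference was 7.28 points (exact permutation p = 0.1). With 3 against 3 libraries the smallest exact p is 0.1.

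*Dlk1*-*Dio3* miRNAs made up 14.55%, 14.0% and 14.6% of miRNA reads in the Dnmt1 KO libraries against 2.26%, 1.76% and 1.81% in the controls. The groups were far apart (14.4 ± 0.329% and 1.94 ± 0.274%, exact permutation p = 0.1, n = 3). The region holds 57 miRNA features between *Dlk1* and *Dio3* on chromosome 12, of which 46 were tested, and 31 of them reached the level filter on control libraries alone. The change was called higher for 45 of the 46, with a median log2 fold change of 3.02 against 0.09 over all features. The exception, *Mir1247* near *Dio3*, had 17.9, 18.4 and 19.07 RPM in Dnmt1 KO and 16.4, 12.5 and 11.6 RPM in control (log2 fold change 0.55 ± 0.25 SE, limma adjusted p = 0.135).

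Members called higher lay in each part of the domain from *Meg3* to *Mirg*. Of the *Meg3*-proximal miRNAs, 6 of 6 tested were higher (median log2 fold change 3.43), as were 5 of 5 *Rtl1*-antisense miRNAs (2.47), 2 of 2 hosted by *Rian* (4.0) and 32 of 32 from miR-379 to *Mirg* (3.1). On control libraries alone 3, 5, 1 and 21 of these passed the level filter, so the counts are a description. *Mir127* (chromosome 12, 110831042 to 110831138, plus strand), which lies antisense inside *Rtl1*, was the most abundant member. It had 38874, 34320 and 38219 RPM in Dnmt1 KO and 5920, 4532 and 4615 RPM in control, a log2 fold change of 3.01 ± 0.18 (SE; limma adjusted p = 9.71e-17). That 1 feature rose from 0.872% to 6.34% of miRNA reads.

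*Mir758* (110951020 to 110951100) changed most. Its level was 814, 860 and 853 RPM in Dnmt1 KO and 12.1, 13.8 and 8.9 RPM in control (log2 fold change 6.21 ± 0.29 SE, limma adjusted p = 2.61e-20). *Mir540*, beside *Meg3*, went from 36.5 ± 6.97 to 1019 ± 20.2 RPM (log2 fold change 4.90). Next to it, *Mir665* went from 3.19 ± 0.139 to 93.9 ± 5.67 RPM (4.63), while *Mir770*, inside *Meg3*, had the smallest change of that subgroup, from 1.86 ± 1.00 to 9.40 ± 2.21 RPM (2.02). No library of one genotype reached into the range of the other for these 4 miRNAs. Over all tested features every Dnmt1 KO library was above every control in 21.4% and below in 22.8%.

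Among *Rtl1*-antisense miRNAs the changes were more even. *Mir136* went from 378 ± 87.6 to 2193 ± 160 RPM (log2 fold change 2.67) and *Mir431*, the smallest, from 156 ± 12.3 to 716 ± 18.7 RPM (2.31). In *Rian*, *Mir370* went from 6.99 ± 1.17 to 134 ± 7.66 RPM (4.21) and *Mir341* from 88.5 ± 14.1 to 1131 ± 69.3 RPM (3.79). In the long distal cluster, *Mir323* (4.67) stood next to *Mir758*, and *Mir329* had the smallest change at 2.14 (21.0 ± 2.19 to 88.2 ± 3.29 RPM). Over the region the log2 fold changes of called miRNAs ran from 2.02 to 6.21.

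**Figure D2:**
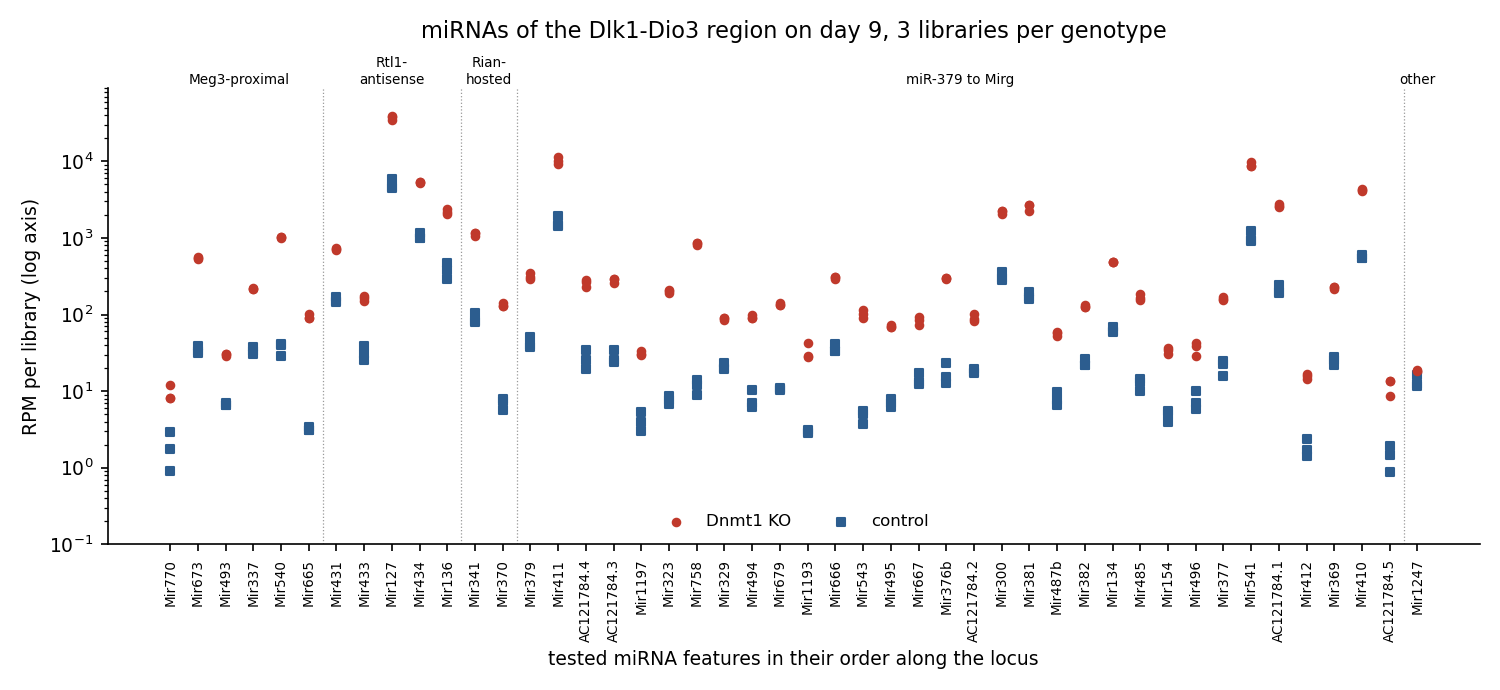
RPM per library on a log axis for the 46 tested *Dlk1*-*Dio3* miRNA features in locus order; circles are the 3 Dnmt1 KO libraries and squares the 3 controls, and dotted lines part the subgroups. The genotypes are apart at every feature, most widely at *Mir758*, and closest at *Mir1247*.

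Reads over the host genes, which include those of the miRNAs inside them, rose too. *Rian* (2274 ± 77.0 against 291 ± 22.4 RPM, log2 fold change 3.08), *Mirg* (16455 ± 613 against 1869 ± 253 RPM, 3.26) and *Rtl1* (45542 ± 2451 against 6631 ± 970 RPM, 2.91) were each called. A read of a miRNA inside a host counts for both features, so the host values are not separate results. In Dnmt1 KO, *Mir341* inside *Rian* alone held 1131 ± 69.3 RPM and *Mir127* inside *Rtl1* 37137 ± 2462 RPM. The other tested antisense miRNAs of *Rtl1*, *Mir434*, *Mir136*, *Mir431* and *Mir433*, held 5332, 2193, 716 and 162 RPM. With *Mir127* they make up almost the whole value of *Rtl1*, though they lie on the opposite strand. Counting thus took no account of strand here, and the value of *Rtl1* does not measure *Rtl1* itself. *Meg3* itself was rare, at 26.2, 18.9 and 18.1 RPM against 4.35, 1.76 and 1.09 RPM (log2 fold change 2.92, limma adjusted p = 2.47e-09), and it overlaps *Mir770*.

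C/D box snoRNAs of the same domain, a group singled out after its values were seen, rose as well. Of 23 features 13 were tested and 13 were higher, with a median log2 fold change of 3.00. Only 8 of these passed the level filter on control libraries alone, so the counts are a description. *AF357428*, which overlaps no listed host, had 192, 179 and 197 RPM in Dnmt1 KO and 22.2, 22.4 and 18.2 RPM in control (log2 fold change 3.24 ± 0.22 SE, limma adjusted p = 2.04e-15). snoRNAs elsewhere in the genome, which guide the chemical modification of ribosomal RNA, went the other way: of 221 tested features that overlap no miRNA, 3 rose and 47 fell (median -0.21). Under scaling by library totals these counts were 1 and 79. The number that fell was 24 without control replicate 2 and 19 without control replicate 3.

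A second cluster was rare in control. It lies on the X chromosome (64029932 to 64092300, NCBIM37, minus strand), is known as a rapidly evolving group expressed in testis, and made up 0.207 ± 0.018% of miRNA reads in Dnmt1 KO against 0.0127 ± 0.0010% in control. Of its 18 features 9 passed the level filter, only 3 of them on control libraries alone, and 9 were higher (median log2 fold change 3.56). Since the other members passed through the libraries in which they are high, these counts are a description.

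*Mir470* held 451, 493 and 434 RPM in Dnmt1 KO and 21.0, 26.1 and 25.07 RPM in control (log2 fold change 4.32 ± 0.24 SE, limma adjusted p = 8.79e-18). *Mir871* was as abundant, with 460, 484 and 374 RPM against 31.0, 33.9 and 29.1 RPM (3.88 ± 0.23). For *Mir881* the levels were 109, 129 and 145 RPM against 6.77, 4.41 and 5.63 RPM (4.41 ± 0.28). These 3 were read in every control library. *Mir743b* was at 28.9, 30.9 and 29.5 RPM against 0.484, 1.59 and 0.727 RPM. *Mir471* had at most 3 reads in each control library and was at least 11-fold higher in Dnmt1 KO, counted against a floor of 3 reads per library. The lowest members, *Mir741* and *Mir465*, reached 11.6 ± 1.22 and 11.28 ± 0.799 RPM. Germline genes commonly held silent by methylation could not be compared, since 0 of 29 features passed the filter.

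The clusters that fell hold miRNAs typical of pluripotent cells. The miR-302 cluster (chromosome 3, 127248146 to 127248725), which also holds miR-367, lies inside *Larp7*, and all of its 5 miRNAs fell (median -1.47). *Mir302a* had 47.2, 45.4 and 47.3 RPM in Dnmt1 KO and 178, 122 and 128 RPM in control (log2 fold change -1.46 ± 0.16 SE, limma adjusted p = 8.95e-10). *Mir302d* had 74.6, 57.1 and 58.0 RPM against 224, 158 and 149 RPM (-1.34 ± 0.16). In both, the first control library was the highest of the 6, and the groups did not overlap. The rarest member, *Mir367*, stood at 3.92 ± 0.598 against 13.8 ± 3.93 RPM. *Larp7*, which encodes a binding protein of the 7SK RNA, was called lower too, at 140 ± 14.7 against 416 ± 86.8 RPM. Nearly all of that value is reads of the 5 miRNAs counted again, so it is not a separate result.

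All 6 miRNAs of the X-linked miR-106a-363 cluster (50094870 to 50095744), a paralogue of miR-17-92, fell (median -1.05). *Mir20b* had 316, 296 and 312 RPM in Dnmt1 KO and 994, 923 and 946 RPM in control (log2 fold change -1.51 ± 0.10 SE, limma adjusted p = 5.19e-16). *Mir106a* had 195, 166 and 197 RPM against 537, 509 and 467 RPM (-1.32 ± 0.12), and *Mir363* 713, 639 and 699 RPM against 1655, 1570 and 1555 RPM (-1.10 ± 0.10). The most abundant member, *Mir92-2*, fell from 21274 ± 1205 to 9862 ± 917 RPM, which with the rest brought the cluster from 4.28% to 1.92% of miRNA reads. Reads of *Mir92-2* can also belong to *Mir92-1* of miR-17-92. Its fall, and most of the fall in share, thus cannot be assigned to this cluster alone. The rare *Mir19b-2* (-0.85) was not called without Dnmt1 KO replicate 1 or control replicate 3 (limma adjusted p = 0.0558 and 0.0751).

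In the related clusters the medians were nearer to 0. In miR-17-92, an amplifier of proliferation, 5 of 7 features including the host *Mir17hg* were lower (median -0.36). *Mir17* had 830, 816 and 838 RPM against 1538, 1490 and 1597 RPM (log2 fold change -0.78 ± 0.09 SE, limma adjusted p = 8.81e-09), and *Mir20a* went from 1134 ± 56.8 to 621 ± 52.0 RPM (-0.76). *Mir18* (-0.41, limma adjusted p = 0.0291) was called only with all libraries or without Dnmt1 KO replicate 3 (0.0513 to 0.0918 without each other one). *Mir19a* (-0.27) and *Mir19b-1* (-0.23) did not pass. In miR-106b-25, which lies in the replication gene *Mcm7*, 3 of 4 features fell, with *Mir93* at 2731 ± 116 against 4728 ± 78.5 RPM (-0.68) and *Mir106b* at 470 ± 19.4 against 711 ± 20.5 RPM (-0.48). *Mir25*, at 7013 ± 185 against 8651 ± 11 RPM (-0.19), did not pass.

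Features were also summed by seed. The 6 features with seed AAAGUGC, printed above, fell in 6 of 6 cases, and together they summed to 4969, 5173 and 5290 RPM in Dnmt1 KO and 9596, 9401 and 9723 RPM in control (exact permutation p = 0.1, n = 3). For seed AUUGCAC 4 of 7 features fell and 0 rose, and the sum went from 77045 ± 2487 to 51409 ± 1069 RPM. For seed AAGUGCU the sum was 71835 ± 1941 RPM in Dnmt1 KO against 84120 ± 2923 RPM, with 2 of 5 features called, both of them miR-302. Its bulk came from *Mir295*, at 60940, 58705 and 57738 RPM against 66839, 70741 and 71225 RPM (log2 fold change -0.12 ± 0.08 SE, limma adjusted p = 0.332).

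The miR-290-295 cluster is the main miRNA cluster of mouse ESCs. Of its 7 features, 2 rose and 0 fell. *Mir290* was at 745 ± 29.4 against 622 ± 21.1 RPM (log2 fold change 0.38 ± 0.10 SE, limma adjusted p = 0.00337) and *Mir293* at 14742 ± 1404 against 12403 ± 468 RPM (0.36 ± 0.11). Neither was called without Dnmt1 KO replicate 3 (limma adjusted p = 0.0804 and 0.219), and *Mir293* also not without Dnmt1 KO replicate 2 (0.0731). These directions depended on scaling: 1 rose and 1 fell with library totals, and 0 rose and 4 fell when miRNA features alone set the scale. The share of the cluster in miRNA reads was 19.09 ± 0.361% in Dnmt1 KO and 21.4 ± 0.706% in control.

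Members of the miR-183 cluster and the miR-200 family were somewhat lower. *Mir182*, the most abundant small RNA of all, had 114703, 116536 and 116485 RPM against 165872, 174778 and 165668 RPM (log2 fold change -0.43 ± 0.10 SE, limma adjusted p = 0.000887). *Mir183* fell alike (-0.43), and *Mir96* (-0.35) did not pass. Of 5 miR-200 family members, which maintain the epithelial state, *Mir200b* fell (-0.30 ± 0.10, limma adjusted p = 0.0267). That call was lost without Dnmt1 KO replicate 1 or 2 or control replicate 2 or 3 (limma adjusted p 0.0515 to 0.128). With library totals the number called was 3 of 5. Of the miR-15/16 family, *Mir497* (-0.55), *Mir195* (-0.59) and *Mir15b* (-0.42) fell. Without control replicate 2 *Mir195* and *Mir15b* were not called (limma adjusted p = 0.0565 and 0.0511).

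**Figure D3:**
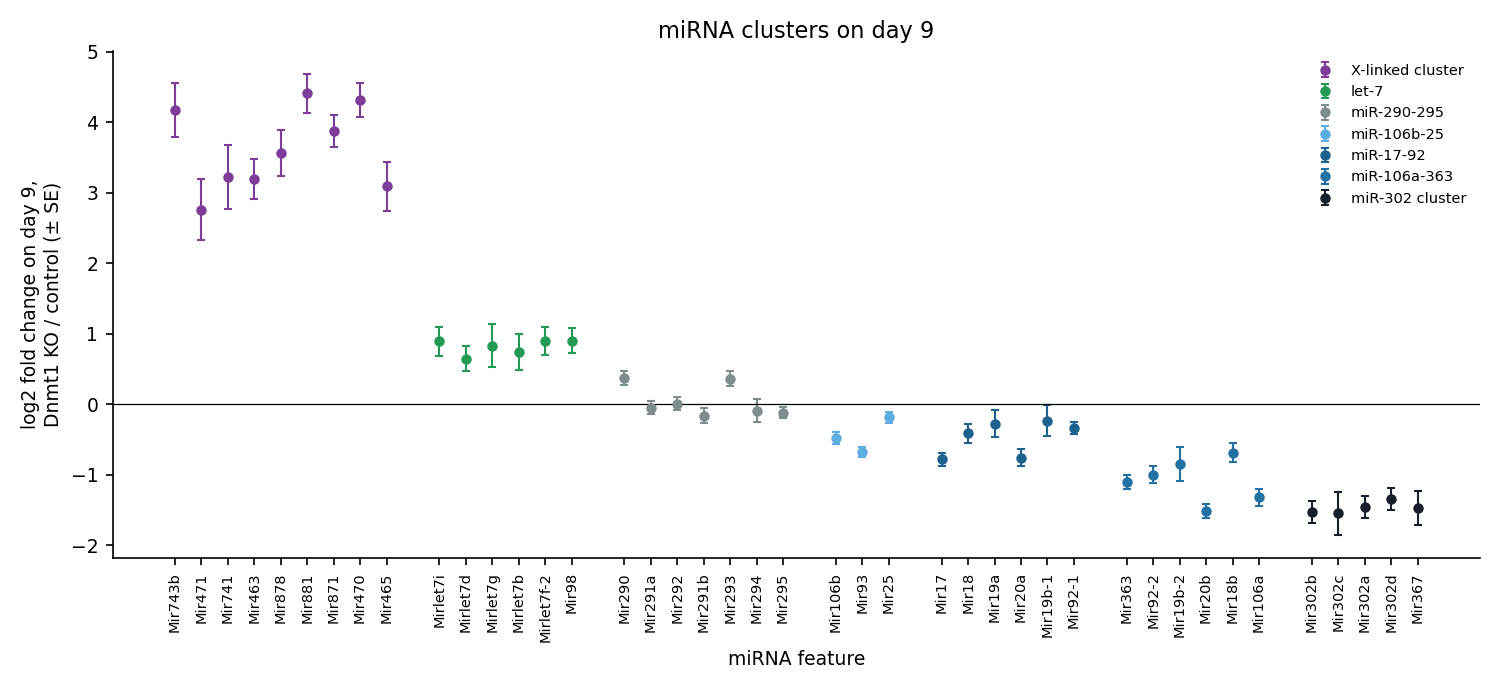
Log2 fold change on day 9 (Dnmt1 KO over control, y axis) with its SE for each tested miRNA of 7 clusters or families (x axis). The X-linked cluster lies above 2.7 and let-7 between 0.65 and 0.90, miR-290-295 straddles 0, and the miR-302 cluster lies between -1.54 and -1.34.

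The let-7 family, which restrains growth and accumulates with differentiation, rose in 6 of 6 tested features (median 0.86). *Mirlet7i* had 2006, 1777 and 2099 RPM in Dnmt1 KO and 1358, 1015 and 1074 RPM in control (log2 fold change 0.90 ± 0.20 SE, limma adjusted p = 0.00105). *Mir98* had 195, 171 and 208 RPM against 124, 104 and 104 RPM (0.90 ± 0.18). *Mirlet7g* (0.83 ± 0.30, limma adjusted p = 0.0473) and *Mirlet7b* (0.75 ± 0.25, limma adjusted p = 0.0346) were closest to the threshold. Both lost the call when any 1 of 5 of the 6 libraries was left out (limma adjusted p 0.0731 to 0.204; the exception was control replicate 1), and *Mirlet7d* (0.65) without Dnmt1 KO replicate 1 (0.124). With library totals 4 of the 6 were called, and with miRNA features alone 3.

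Markers of mesenchyme or fibroblasts moved alongside. Of 11 listed markers 9 were tested and 7 rose, *Mir199a-1* had 0 reads, and the summed level was 32631 to 38035 RPM in Dnmt1 KO and 18205 to 24066 RPM in control. *Mir143*, a smooth muscle and fibroblast miRNA, had 22360, 20480 and 22480 RPM against 14551, 10680 and 11710 RPM (log2 fold change 0.95 ± 0.10 SE, limma adjusted p = 1.13e-09). *Mir10a*, from a *Hox* cluster, had 11753, 9094 and 10114 RPM against 7193, 5675 and 5807 RPM (0.85 ± 0.12). The first control library was the highest control for *Mirlet7i*, *Mir143* and *Mir10a* alike. In such bulk RNA, more cells of a type and more RNA per cell cannot be told apart, and the part of these markers in the let-7 change was not tested.

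Neural markers summed to 3.07 to 3.40 RPM against 1.76 to 4.54 RPM and muscle markers to at most 0.16 RPM. Endoderm markers, at 1035 to 1068 against 996 to 1133 RPM, had 0 of 2 called. The ESC marker miRNAs summed to 111278 to 112585 RPM in Dnmt1 KO and 119986 to 126671 RPM in control, with 2 of 12 higher and 5 lower. In the blood list, *Mir142* had 1835, 1925 and 2126 RPM against 793, 723 and 834 RPM (log2 fold change 1.44 ± 0.16 SE, limma adjusted p = 2.12e-09), whereas *Mir150* (218 ± 9.26 against 184 ± 5.72 RPM) did not pass.

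Several other miRNAs outside these groups changed. *Mir181a-2* rose from 17.1 ± 0.783 to 64.3 ± 5.03 RPM (log2 fold change 1.97) and *Mir215*, a p53-responsive miRNA, from 5.08 ± 0.890 to 18.7 ± 2.82 RPM (1.82). The p53 targets *Mir34c* (2541, 2430 and 2410 RPM against 1739, 1332 and 1549 RPM, 0.80) and *Mir34b* (0.90) also rose, while *Mir34a*, at 376 ± 3.14 and 378 ± 35.8 RPM, did not pass. *Mir29a*, whose family targets the de novo methyltransferases, rose (973 ± 87.6 against 678 ± 36.6 RPM, 0.64), and *Mir29c*, *Mir148a*, *Mir148b* and *Mir152* did not pass. Of 8 tested miRNAs inside *Sfmbt2*, an imprinted rodent cluster, 6 rose (median 0.67; 5 with library totals), led by *Mir467e* (66.3 ± 1.53 against 37.3 ± 3.75 RPM, 0.93) and *Mir669c* (0.86). *Mir449c* (-1.07), *Mir874* (-1.38) and *Mir653* (-0.99) fell from 17.2, 11.7 and 32.7 RPM.

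Outside miRNAs, fragments of mitochondrial transcripts rose. Of 8 tested mitochondrial protein-coding genes, a group added after its values were seen, 7 were higher (median 1.26). *mt-Co1*, a subunit of cytochrome c oxidase, had 1902, 1364 and 1524 RPM against 633, 705 and 521 RPM (log2 fold change 1.48 ± 0.15 SE, limma adjusted p = 3.83e-10), and *mt-Cytb* had 743, 542 and 588 RPM against 267, 273 and 221 RPM (1.40 ± 0.15). *mt-Nd3* (0.20) did not pass, and *mt-Nd6* (0.79) did not without Dnmt1 KO replicate 1 (limma adjusted p = 0.0943). The 12S rRNA feature *mt-Rnr1* rose by less, from 1462 ± 79.9 to 2530 ± 292 RPM (0.90). Of 14 mitochondrial tRNAs 2 were called, and 0 without Dnmt1 KO replicate 3. Fragments of this size do not give transcript levels, and RNA integrity was not measured in these files.

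Among nuclear genes, reads over the imprinted genes *H19* (8.0 ± 0.222 against 1.69 ± 0.702 RPM, log2 fold change 1.90, which holds *Mir675*) and *Peg3* (20.6 ± 5.71 against 8.18 ± 1.02 RPM, 1.32) rose, and those over *Grb10*, a growth suppressor, fell (2.85 ± 0.888 against 7.58 ± 1.15 RPM, -1.10). Of 10 tested features in a list of imprinted genes and their miRNAs, 7 rose and 1 fell, against 12.3% and 6.12% over all features. With library totals 5 rose and 1 fell. The list also names *Dlk1* and *Dio3*. A host counts the reads of a miRNA inside it again, so these features are not all separate results. Of 13 tested methylation and small RNA genes only 1 was called, against 18.4% of all features, and 0 in the R1-suffixed libraries. It was *Eif2c1*, which encodes Argonaute 1, with 16.96, 14.7 and 15.9 RPM against 6.53, 9.0 and 6.72 RPM (1.13 ± 0.26, limma adjusted p = 0.00104). The largest changes elsewhere were over *Naaa* (29.9 ± 2.10 against 6.14 ± 1.87 RPM, 2.27), *Klhl13* (1.88) and *Gdpd5* (1.83). *Snord13*, a snoRNA that acts in 18S rRNA acetylation, fell from 835 ± 31.7 to 396 ± 64.9 RPM (-0.97), and 8 of 18 spliceosomal snRNA features fell (5 without Dnmt1 KO replicate 1), among them a U5 copy (889 ± 48.7 to 469 ± 40.5 RPM, -0.81).

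Whether day 9 differed from its neighbours was tested on the difference of effects. Against day 6, 13 of 2582 features differed (0.503%, limma), 11 of them upwards (0.426%) and 2 downwards (0.0775%), and 0 of the 46 *Dlk1*-*Dio3* and 0 of the 9 X-linked miRNAs did. Their medians were 3.19 on day 6 and 3.02 on day 9 for the former and 3.40 and 3.56 for the latter. *Mir142* was one of 4 miRNAs whose effect grew, from 0.51 to 1.44 (difference 0.93). This count was 2 without control replicate 2, 3 without control replicate 3, 4 without Dnmt1 KO replicate 3 and 21 without Dnmt1 KO replicate 1. With library totals it was 7, of which 1 was upwards.

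Between days 9 and 11, 122 features differed (4.73%), with 60 upwards (2.32%) and 62 downwards (2.4%), or 71 in all without control replicate 3 and 75 without control replicate 2. Downward calls were 23 without Dnmt1 KO replicate 1 or 3 and 40 without replicate 2. Leaving out control replicate 3 gave 27 of them, and leaving out control replicate 2 gave 41, with 34 upwards. With median-ratio factors 92 were upwards and 42 downwards, so the upward share went from 49.2% to 68.7%. The miR-302 cluster moved as a block: all its miRNAs, and *Larp7*, which counts their reads again, had a higher effect on day 11. The median difference over these 6 features was 1.53. Their day 11 median was 0.07 with 0 called (8.64% of all features were called on day 11). *Mir302a*, for one, went from -1.46 on day 9 to 0.27 on day 11. In miR-106a-363 the effect rose for 4 of 6 (median -1.05 on day 9 and -0.43 on day 11). *Dlk1*-*Dio3* effects grew further in 16 of 46 miRNAs, as in *Mir370* (4.21 to 6.07) and *Mir134* (3.06 to 4.55). The mitochondrial group went from 1.26 to 0.04, with 6 of 8 differences called. The effect of let-7 was 0.86 on day 9 and 0.29 on day 11, but 0 of 6 differences passed. Both comparisons share the day 9 libraries.

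Set against day 1, 377 features differed (14.6%), 230 upwards (8.91%) and 147 downwards (5.69%). They included 45 of 46 *Dlk1*-*Dio3* miRNAs (median difference 3.00) and 9 of 9 of the X-linked cluster (3.43). Of the miR-302 cluster, with *Larp7* counted as a feature, 5 of 6 differed (-1.30), and of miR-106a-363 4 of 6 (-0.88).

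**Figure D4:**
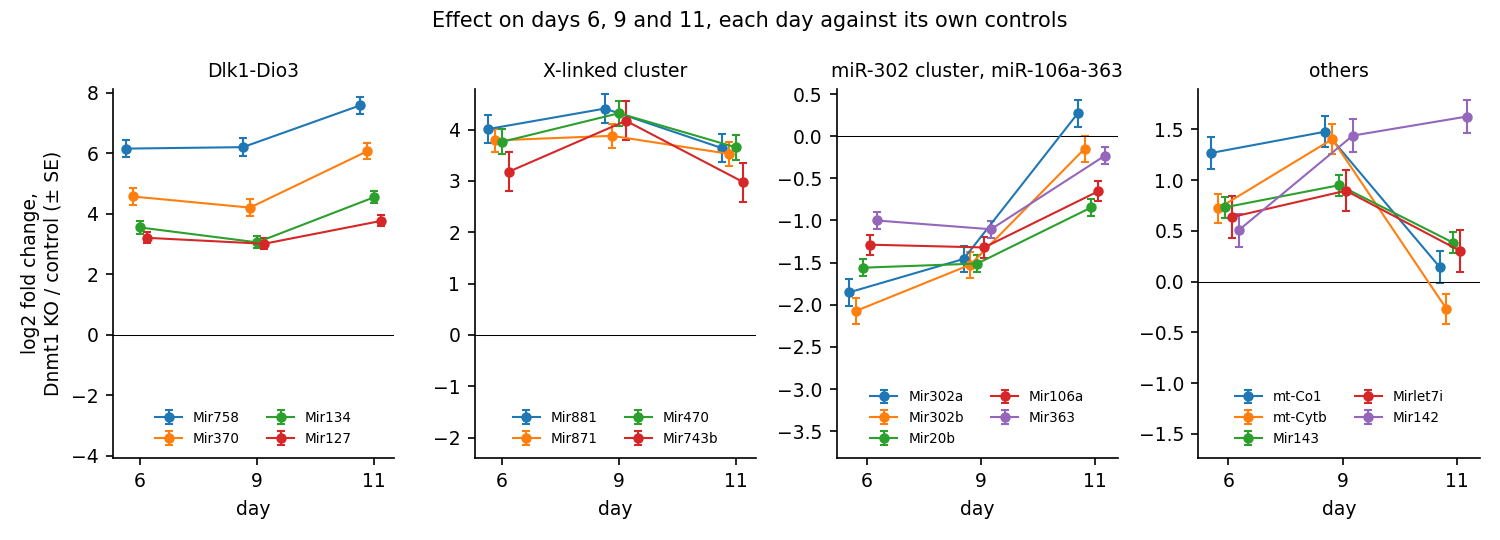
Log2 fold change (Dnmt1 KO over control of the same day, y axis) with its SE on days 6, 9 and 11 (x axis) for 4 or 5 features in each of 4 panels. *Mir370* rose from 4.21 on day 9 to 6.07 on day 11, *Mir302a* returned from -1.46 to 0.27, and *mt-Co1* from 1.48 to 0.14.

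miRNAs loaded into Argonaute were compared in 8 AGO2 immunoprecipitates (4 per genotype), which the methods place on day 9 and the labels on no day. The series text gives 2 biological replicates of 2 samples, and in each genotype libraries 1 and 2 stood apart from 3 and 4. In control, *Mir302a* was at 395, 536, 47.1 and 54.7 RPM and *Mir127* at 173, 176, 3.2 and 3.50 RPM. Depth ran from 1152390 to 25423034 reads. P-values over the 8 libraries may therefore be too small. Of 456 tested features 166 were called (36.4%), 113 higher (24.8%) and 53 lower (11.6%), and 187 with a term for the replicate number. Lower calls were 27, 23 and 35 without control replicates 1, 3 and 4, 81 without Dnmt1 KO replicate 3, and 21 with library totals.

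The *Dlk1*-*Dio3* miRNAs were again the main difference. They took 11.17%, 11.9%, 10.2% and 10.8% of miRNA reads in the Dnmt1 KO precipitates and 0.0749%, 0.0699%, 0.0116% and 0.0101% in control (exact permutation p = 0.0286, n = 4 libraries, the smallest possible). That p treats the libraries of a genotype as independent, although they stood apart in pairs, so it may be too small. Of 45 tested, 44 were higher, with a median log2 fold change of 7.34 against 3.02 to 3.04 on day 9. In the control precipitates even *Mir127* reached 10 RPM in libraries 1 and 2 only (173, 176, 3.2 and 3.5 RPM). Such members passed the filter of 10 RPM in 3 libraries through Dnmt1 KO, so these counts are a description. In total RNA the shares were 14.4% and 1.94%. For *Mir127*, total RNA held 5023 RPM in control and the precipitates 88.8 ± 98.7 RPM. The X-linked cluster rose in 11 of 11 tested features (median 4.71), with *Mir871* at 857 ± 195 against 22.0 ± 3.69 RPM. Which of them would pass the filter on control precipitates alone was not counted, so this too is a description.

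miR-106a-363 fell in the precipitates too, in 4 of 6 features (median -1.05), as in *Mir20b* (315, 221, 205 and 165 RPM against 580, 633, 473 and 486 RPM, log2 fold change -1.54 ± 0.21 SE, limma adjusted p = 0.000346). The miR-183 cluster fell in 3 of 3 (median -1.16), the miR-15/16 family in 3 of 6, and the *Sfmbt2* cluster rose in 7 of 10 tested features (1.19). The miR-302 cluster had 0 of 6 features called, *Larp7* included (median 0.38), with *Mir302a* at 509, 492, 112 and 85.5 RPM in Dnmt1 KO, so libraries of the same genotype spread further apart than the genotype means. let-7 had 0 of 5 called (median 0.18), and *Mirlet7i* was at 119 ± 62.5 against 91.1 ± 53.6 RPM. Of 7 tested mesenchyme markers 1 rose, *Mir143* (4054 ± 310 against 1554 ± 211 RPM, 1.13). The summed mesenchyme level in the precipitates was 5026 to 5981 RPM and 2139 to 4229 RPM, below its level in total RNA. The difference between total RNA and precipitates in these effects was not tested.

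**Figure D5:**
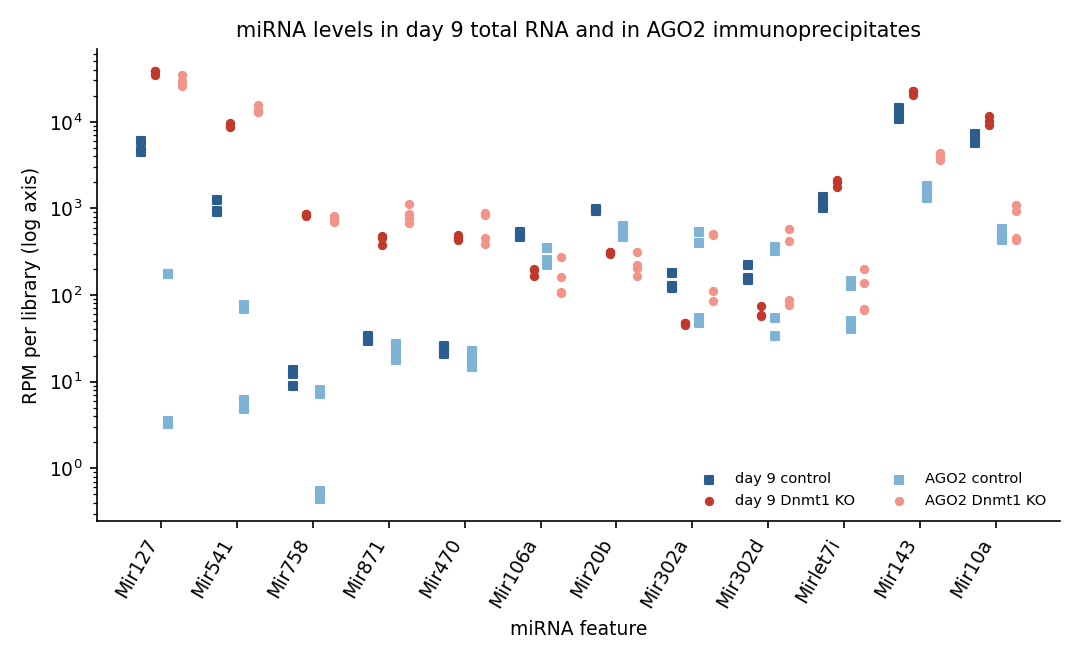
RPM per library on a log axis for 12 miRNA features in day 9 total RNA (3 libraries per genotype) and AGO2 immunoprecipitates (4 per genotype). Control squares of *Mir127* lie near 5023 RPM in total RNA and at 3.2 to 176 RPM in AGO2, and *Mir302a* in AGO2 splits into pairs of libraries in both genotypes.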

How the data were processed

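Small RNA was sequenced from ESCs with or without *Dnmt1*. The authors trimmed reads with Trim Galore 0.3.5, kept 20 to 24 nt, mapped them to NCBIM37 with Bowtie2 2.2.9 and counted overlaps per feature in SeqMonk (versions per the submitters' processing notes). The deposited values are RPKM. RPKM was multiplied by feature span in kilobases to give RPM. 100% of low values were whole multiples of 1 read (tolerance 5% of a step), which gave the depth. Depths of 4135228 reads and over put 3 reads at 0.73 RPM or less; floors cover counting error only. No per-sample column was left unmapped (0).

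Levels were scaled by TMM (30% of log ratios and 5% of abundances trimmed) and fitted as log2(RPM + 1) with limma 3.58.1 (trend) in R 4.3.3, with 1 mean per day and genotype over the 36 time course libraries. Features needed 10 RPM in 3 libraries. The edgeR and DESeq2 count models were not used, because the deposited values are RPKM. Whole read numbers rebuilt from the steps of those values went into TMM and voom. Adjusted p-values are Benjamini-Hochberg over all features of a comparison, and differences between days are contrasts in the same fit. The 8 AGO2 libraries had a fit of their own. Single sums and shares had a two-sided exact permutation test. The scripts were tested on simulated data. Python 3.11.15 was used for summaries.

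The members and lists were chosen with earlier results of these data known. Named were the 12 largest called miRNA changes in each direction outside *Dlk1*-*Dio3* with groups apart, the 2 largest and the smallest per *Dlk1*-*Dio3* subgroup with the hosts, the 6 largest per direction of other classes, members of short lists, the 2 largest each way of long ones, and for each difference between days the 4 largest each way outside the region and 2 inside. *Mir541*, *Mir1247* and *AF357428* were singled out after their values were seen. Some are given in counts only. Of 1573 miRNA features, 402 matched RefSeq by symbol and 351 more held a RefSeq mature sequence.  Replicate libraries of a genotype differed by more than counting error (chi-square per degree of freedom 23.1 to 53.0 over miRNA features).

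Alternatives were other scalings, pseudocounts and filters, day 9 alone, voom, a replicate term, miRNA features alone, leaving out each library, and the R1-suffixed libraries of day 9.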

Additional observations from a re-analysis of the deposited data

Results flagged for a closer look

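The effect of the deletion differed between days (limma difference of effects, adjusted p under 0.05) in the following miRNAs, named by rule. From day 6 to day 9 it grew by 1.27 on the log2 scale for *AC154660.1* (which holds miR-16), by 0.93 for *Mir142*, by 0.78 for *AL844840.2* and by 0.76 for *AC154124.1*. From day 9 to day 11 it grew by 1.73 for *Mir302a*, 1.58 for *Mir449c*, 1.56 for *Mir367*, 1.55 for *Mir302c*, 1.86 for *Mir370* and 1.5 for *Mir134*. In the same interval the differences were -1.0 for *AL844840.2*, -0.89 for *CT025619.1* (which holds miR-125b), -0.74 for *AC154124.1* and -0.66 for *AC113316.1*.

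Day 9 exceeded day 1 by 4.73 for *Mir743b*, 4.28 for *Mir881*, 4.23 for *Mir470*, 3.57 for *Mir871*, 6.1 for *Mir758* and 4.85 for *Mir665*. It was below day 1 by differences of -1.47 for *Mir302b*, -1.34 for *Mir20b*, -1.33 for *Mir302d* and -1.27 for *Mir302a*.

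In 2 of 70 groups of 4 AGO2 libraries, 1 library lay far from the others (gap over range above Dixon's critical value, which chance passes in about 1 of 20 groups). For *Mir181a-2* in control the ratio was 0.95, with 22.1 RPM in library 1 against 16.4 to 16.6 RPM. For *Mir341* in Dnmt1 KO it was 0.885, with 1258 RPM in library 2 against 685 to 750 RPM.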

How the results depend on the processing

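Without the filter on low values, 288 of 24119 features were called on day 9. The day 9 libraries alone gave 878 calls, voom 904 and miRNA features alone 177 of 287, since each setting changes the features or the estimate of spread. Leaving out each library gave 329 to 453. For day 9 against day 6 the count was 7 with library totals, 21 with a pseudocount of 5 RPM, 1 without the filter and 65 with voom, and 2 to 21 when libraries were left out. For day 11 against day 9 it was 36 without the filter, 364 with voom and 44 with miRNA features alone, and 71 to 120 when libraries were left out. For day 9 against day 1 it was 221, 586 and 127 in the same 3 settings, and 297 to 362 with libraries left out. In AGO2, 158 features were called with library totals, 137 of them higher, and 118 to 183 with libraries left out. The cause of other shifts was not tested.

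Without the 5 most abundant features the difference in miRNA share was 7.28 percentage points instead of 0.945. The difference in protein-coding share was 4.35 points, and -1.14 without features that overlap a miRNA. For lincRNA it was 0.765, and -0.878 without them. *Mir292* turned from 0.01 to -0.22 with miRNA features alone. Over 135 features (104 called on day 9) and 17 settings, this was the 1 reversal.

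Same-numbered day 9 libraries did not deviate together (correlations 0.035, 0.02 and -0.002), and pairs of different numbers gave -0.119 to 0.11. With 3 libraries per genotype this cannot tell whether same-numbered libraries share more than a number. A replicate block gave 469 calls, 448 of them shared. In the R1-suffixed libraries 402 were called, 314 shared, and *Mir215*, *Mir302c*, *Mir471*, *Mir653*, *Mir874*, *H19*, *Grb10* and *Eif2c1* kept their sign but not the call. Their deviations correlated with those of their namesakes (0.439 to 0.583), so they may not be independent. At these depths, 10 RPM is over 40 reads per library; rarer features were not resolved.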
